A study of Mus musculus with 16 samples.

Results

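A set of 9 genes of myelin and of the oligodendrocyte, the cell that makes myelin in the brain, was followed through an astrocyte ribosome precipitation of mouse striatum. They are Mbp, Mobp, Mal, Mog, Mag, Cldn11, Cnp, Ermn and Ugt8a, chosen by symbol, and all 9 were among the 13277 genes listed. The 16 libraries came from 8 adult mice of the cross Aldh1l1-Cre/ERT2 x RiboTag, in which the tag on ribosomes depends on an inducible Cre expressed under the astrocyte gene Aldh1l1. Per the labels, 4 mice (Y481, Y482, Y483 and Y485) received an adeno-associated virus for a control protein that is not named, and 4 mice (Y486, Y487, Y489 and Y490) received one for hPMCA2w/b, a human plasma membrane calcium pump that lowers calcium signals. These groups are called control and PMCA here. Each mouse gave an input library from the cleared lysate of whole striatum and an IP library from RNA bound to the haemagglutinin-tagged ribosomes, so there were 4 groups of 4. RiboTag mice were on a B6 background and the Cre line, of FVB origin, had been backcrossed to C57BL/6N. The promoter of the viruses is not given in the sources used here. Both treatments carried the same Cre and tag alleles, and no group without Cre or without virus was analysed here.

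Myelin is a sheath of compacted oligodendrocyte membrane around axons. Some of its proteins hold the membrane layers together, others sit in the outer or inner layers or seal the edges, and a large part of the sheath is lipid. The RNA of Mbp is known to be carried out of the oligodendrocyte cell body and translated in the myelin-forming processes. In striatum, bundles of myelinated axons run through the tissue, so input lysate holds oligodendrocyte RNA that an astrocyte precipitation is meant to leave behind.

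The libraries held 198462 to 686343 reads over the listed genes, and 1 read amounted to 1.59 to 4.46 CPM (reads of a gene scaled to a common effective library size). Levels are given as deposited log2 CPM, in which a library without a read of a gene stands at -0.66, or as whole reads recovered from them. Reads carried no molecular identifiers, so counting intervals cover counting error only. Precipitation raised all 10 astrocyte markers examined in both treatments, and their summed level was 4400 to 4930 CPM in control input and 83237 to 90662 CPM in control IP. It lowered all 6 general neuronal and all 10 projection neuron markers in each treatment.

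The precipitation separated Cnp from the other members. In control mice 8 of the 9 genes were lower in IP than in input, with log2 fold changes from -2.43 (Mobp) to -6.07 (Ugt8a), and the same 8 genes were lower in PMCA mice, from -2.57 (Mobp) to -5.36 (Cldn11). The most negative ends hold for the deposited prior count, which weighs on libraries with 0 or 1 reads. With a prior of 2 reads Mal was the most negative in both treatments, at -4.00 in control (Ugt8a -3.96) and -4.22 in PMCA mice (Cldn11 -3.80). Cnp, which encodes the myelin enzyme and membrane protein 2',3'-cyclic nucleotide 3'-phosphodiesterase, was the exception. It had log2 fold changes of -0.12 in control mice (SE 0.28, adjusted p = 0.761) and -0.46 in PMCA mice (SE 0.28, adjusted p = 0.188). The test was limma on log2 CPM over all 16 libraries, with p-values adjusted over 8091 genes and a call at an adjusted p under 0.05. Among all tested genes 26.1% were called lower in control IP and 24.8% in PMCA IP, and 53.4% and 49.7% were called in either direction. The median log2 fold change of the 9 members was -3.98 in control and -3.75 in PMCA mice, against 0.06 and 0.02 over all genes tested. All 4 IP libraries lay below all 4 input libraries for 8 of 9 members in each treatment. Among tested genes 23.7% showed this arrangement in control and 23.3% in PMCA mice. Mag, Mog, Cldn11, Mal, Ermn and Ugt8a met the read filter through input, where they are high, and did not meet it in IP alone. For these genes the counts describe the depletion and are no separate support for it.

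**Figure D1:**
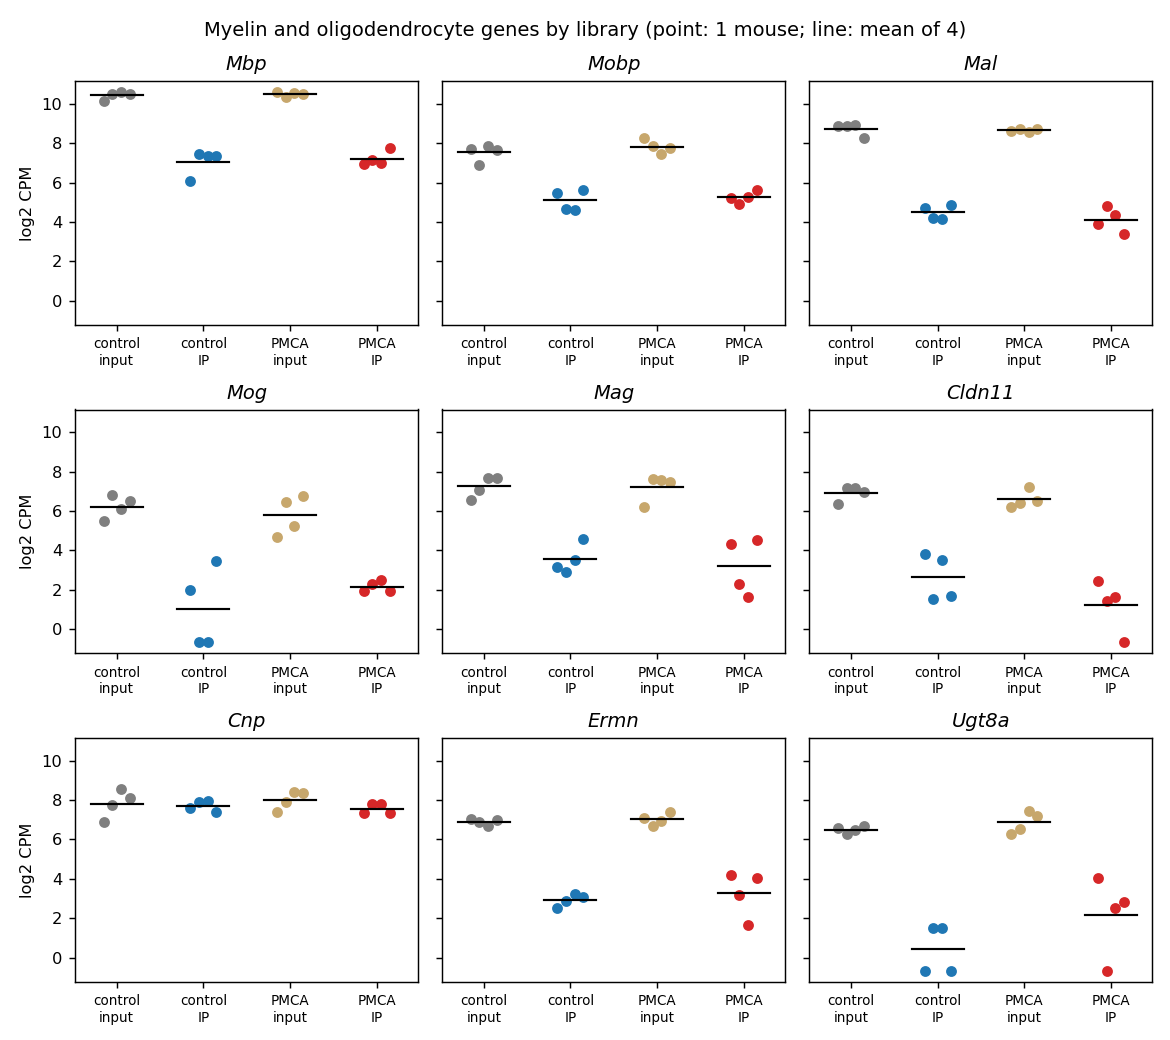
Deposited log2 CPM of the 9 genes in each library, by group; a point is 1 mouse and the line is the mean of 4. The IP points lie below the input points for 8 genes, while the Cnp points of all 4 groups lie between 6.86 and 8.56 log2 CPM.

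In control input Cnp stood at 6.86, 7.75, 8.56 and 8.08 log2 CPM in Y481, Y482, Y483 and Y485, and in control IP at 7.58, 7.89, 7.94 and 7.38. In PMCA input it stood at 7.38, 7.89, 8.43 and 8.38 in Y486, Y487, Y489 and Y490, and in PMCA IP at 7.35, 7.78, 7.77 and 7.34. The groups overlapped throughout, and Y481 and Y482 were higher in IP than in input while the other 6 mice were lower. Input varied more than IP, with SDs of 0.72 against 0.27 in control and 0.49 against 0.25 in PMCA mice (n = 4 each). Y481 and Y482 had the input libraries with the fewest reads (198462 and 225349). Y490, the deepest input (419458), had 8.38, but Y489 had 8.43 with 289416 reads. A relation of the Cnp input level to depth was not tested. The 95% interval of the fold change ran from 61.4% to 139% of the input level in control mice and from 48.4% to 109% in PMCA mice. So a fall to 48.4% of the input level in PMCA mice lies within the error, and both intervals lie above that of every other member in the same treatment. With library size taken as the total of listed reads, Cnp passed as lower in PMCA mice (-0.72, adjusted p = 0.0326), where the median of all genes shifted from 0.02 to -0.26, and it did not pass in control mice (-0.32, adjusted p = 0.338).

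Cnp lies on chromosome 11 from 100574909 to 100591875 (GRCm38), and 9058 bases of it are shared with the neighbouring chaperone gene Dnajc7 (100582818 to 100620292). Whether counting used the strand is not given in the sources used here. Dnajc7 had log2 fold changes of -0.99 in control mice (SE 0.25, adjusted p = 0.00130) and -0.29 in PMCA mice (SE 0.25, adjusted p = 0.344). Its summed reads were 200 in control input and 158 in control IP. Cnp had 323 and 397 reads there, and since IP libraries were deeper, its summed reads per library size were 1.26-fold lower in control IP (95% counting interval 1.09 to 1.46) and 1.47-fold lower in PMCA IP (1.27 to 1.71). These intervals leave out the spread between mice. The part of shared sequence in the Cnp values was not tested. Dnajc7 was looked at only because it overlaps Cnp.

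Mbp, the basic protein that joins the cytoplasmic faces of the compact sheath, had more reads than the other members in every input library. It stood at 10.12, 10.51, 10.57 and 10.48 log2 CPM in control input and at 6.05, 7.43, 7.36 and 7.35 in control IP. PMCA mice had levels of 10.59, 10.35, 10.53 and 10.50 in input and 6.96, 7.15, 7.01 and 7.74 in IP. No IP value came near an input value, and Y481 was the low one of control IP. The log2 fold change was -3.37 in control mice (SE 0.24, adjusted p = 1.59e-10) and -3.28 in PMCA mice (SE 0.24, adjusted p = 2.88e-10), so that 9.68% and 10.3% of the input level remained. The gene (chromosome 18 from 82475091 to 82585637) also gives rise to longer golli transcripts, and gene-level values do not separate these from the myelin forms.

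Mobp encodes another small basic protein of compact myelin (chromosome 9 from 120149742 to 120181488). Its log2 CPM in control mice was 7.72, 6.88, 7.86 and 7.63 in input and 5.48, 4.66, 4.61 and 5.64 in IP, and in PMCA mice 8.28, 7.83, 7.43 and 7.74 in input and 5.22, 4.91, 5.26 and 5.61 in IP. Input and IP did not overlap, but the gap was smaller than for Mbp. The log2 fold change was -2.43 in control (SE 0.28, adjusted p = 3.46e-08) and -2.57 in PMCA mice (SE 0.28, adjusted p = 1.44e-08), which left 18.6% and 16.8% of the input level.

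Mal, a lipid-raft protein of myelin and other membranes that spans the membrane several times (chromosome 2 from 127633226 to 127656695), had the smallest adjusted p of the members in both treatments. Control input held 8.86, 8.88, 8.92 and 8.26 log2 CPM and control IP 4.70, 4.21, 4.16 and 4.86. PMCA input held 8.62, 8.73, 8.58 and 8.72 and PMCA IP 3.90, 4.81, 4.37 and 3.37. Y485 was the low one of control input, and the spread of PMCA input was small (SD 0.08, n = 4). The log2 fold change was -4.25 in control (SE 0.27, adjusted p = 2.86e-13) and -4.55 in PMCA mice (SE 0.27, adjusted p = 8.14e-14), so 5.27% and 4.27% remained.

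**Figure D2:**
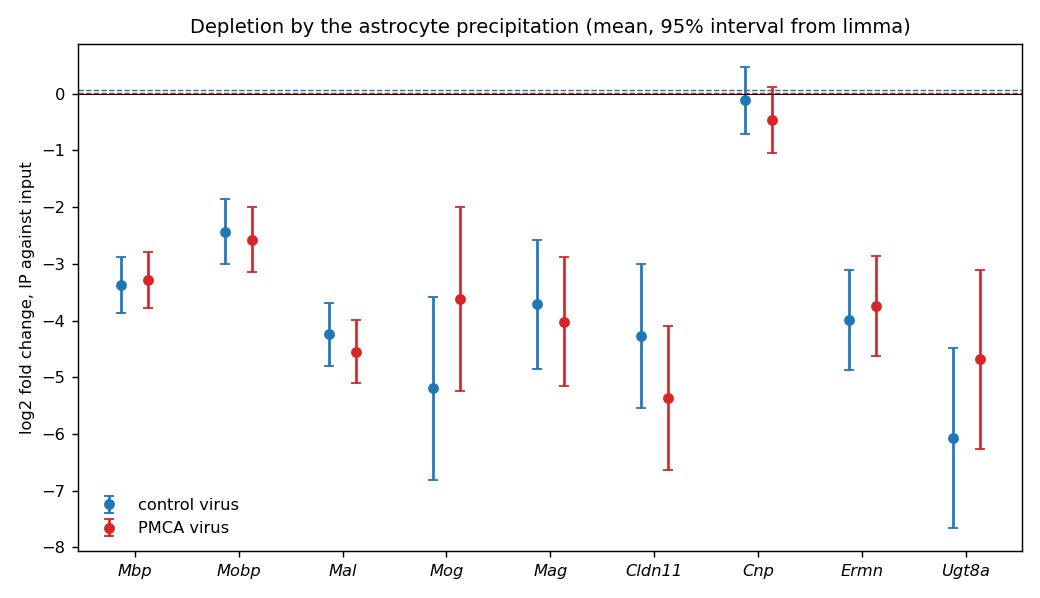
Log2 fold change of IP against input for each gene in control (blue) and PMCA (red) mice, with the 95% interval from limma; dashed lines mark the medians over all genes tested, 0.06 and 0.02. Mobp and Mbp are the least depleted of the 8 genes that fell in control mice, at -2.43 and -3.37, and Cnp lies at -0.12 and -0.46.

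The 3 members of the myelin surface and its seals had few IP reads. Mag, an adhesion molecule of the innermost layer that faces the axon (chromosome 7 from 30899175 to 30914922), had 21, 32, 80 and 76 reads in control input and 5, 3, 5 and 9 in control IP. In PMCA mice it had 20, 65, 61 and 83 reads in input and 12, 2, 1 and 7 in IP. All input libraries lay above all IP libraries in log2 CPM, although Y486, with the lowest PMCA input, had the most IP reads. Mag changed by -3.72 on the log2 scale in control (SE 0.55, adjusted p = 5.23e-06) and by -4.02 in PMCA mice (SE 0.55, adjusted p = 2.05e-06). The PMCA value was -4.73 without Y486, -3.39 without Y489 and -3.38 with a prior of 2 reads.

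Mog, an immunoglobulin-like protein of the outermost layer (chromosome 17 from 37010740 to 37023398), had 10, 27, 26 and 33 reads in control input and 2, 0, 0 and 4 in control IP. PMCA mice had 7, 29, 12 and 50 reads in input and 2, 2, 2 and 1 in IP. In IP, Y482 and Y483 had no read, which allows up to 3 reads in each. Its log2 fold change of -5.19 in control mice (SE 0.79, adjusted p = 3.24e-06) therefore depended on the prior count and became -3.39 with a prior of 2 reads, -4.42 without Y482 and -5.91 without Y485. For PMCA mice it was -3.62 (SE 0.79, adjusted p = 3.89e-04) and -2.75 with that prior. Over the summed reads Mog was 24.8-fold lower in control IP (95% interval 10.99 to 69.3) and 18.1-fold lower in PMCA IP (8.47 to 46.2).

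Cldn11, the claudin that forms the tight junctions of myelin (chromosome 3 from 31149920 to 31164326), had 18, 34, 56 and 46 reads in control input and 8, 1, 5 and 1 in control IP. In PMCA mice it had 20, 28, 49 and 42 reads in input and 3, 1, 1 and 0 in IP. IP reads were few in each library, and the PMCA library without a read was that of Y490. Cldn11 changed by -4.28 log2 units in control (SE 0.62, adjusted p = 1.63e-06) and -5.36 in PMCA mice (SE 0.62, adjusted p = 4.42e-08), and -3.47 and -3.80 with a prior of 2 reads. Without Y481 the control value was -4.86, and without Y490 the PMCA value was -4.76. Summed reads gave 15.9-fold lower in control IP (9.35 to 29.1) and 36.0-fold lower in PMCA IP (15.05 to 112), with intervals that overlap.

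Ermn, a protein that binds actin in oligodendrocytes (chromosome 2 from 58045115 to 58052864), had 29, 28, 40 and 47 reads in control input and 3, 3, 4 and 3 in control IP. PMCA mice had 37, 34, 40 and 77 reads in input and 11, 4, 1 and 5 in IP. The control IP libraries were close together (SD 0.30 log2 CPM, n = 4), whereas those of PMCA mice spread more widely (SD 1.17, n = 4). Ermn changed by -3.98 log2 units in control (SE 0.43, adjusted p = 1.17e-08) and -3.75 in PMCA mice (SE 0.43, adjusted p = 4.05e-08), and -3.37 and -3.17 with a prior of 2 reads.

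Ugt8a, the enzyme that makes galactosylceramide, a main lipid of myelin (chromosome 3 from 125865272 to 125938682), had 21, 18, 34 and 38 reads in control input and 0, 1, 1 and 0 in control IP. PMCA mice had 21, 31, 57 and 68 reads in input and 10, 0, 2 and 2 in IP. Of the 14 PMCA IP reads 10 came from Y486. Ugt8a changed by -6.07 log2 units in control (SE 0.77, adjusted p = 2.04e-07) and -4.69 in PMCA mice (SE 0.77, adjusted p = 1.25e-05), and -3.96 and -3.52 with a prior of 2 reads. The summed-read ratio in PMCA mice was 16.4 (9.49 to 30.5), and in control mice the 2 IP reads allowed only a wide interval (86.0-fold, 23.3 to 719). The PMCA log2 fold change was -5.51 without Y486 and -3.85 without Y487.

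Depletion was then compared between members within each mouse, as log2 CPM in IP minus log2 CPM in input. An exact two-sided sign-flip permutation test over the 8 mice was run for each of the 36 pairs, with Benjamini-Hochberg adjustment over the pairs. The smallest p it can give is 0.00781. At the deposited prior the means over 8 mice ran Ugt8a (-5.38 ± 1.79), Cldn11 (-4.82 ± 1.45), Mog (-4.41 ± 1.83), Mal (-4.40 ± 0.60), Mag (-3.87 ± 1.31), Ermn (-3.87 ± 0.76), Mbp (-3.32 ± 0.40), Mobp (-2.50 ± 0.49) and Cnp (-0.29 ± 0.57) (SD, n = 8 mice each), from most to least depleted. Of the 36 pairs 16 differed, and these included all 8 pairs with Cnp, each in the same direction in 8 of 8 mice (adjusted p = 0.0256, exact permutation test).

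**Figure D3:**
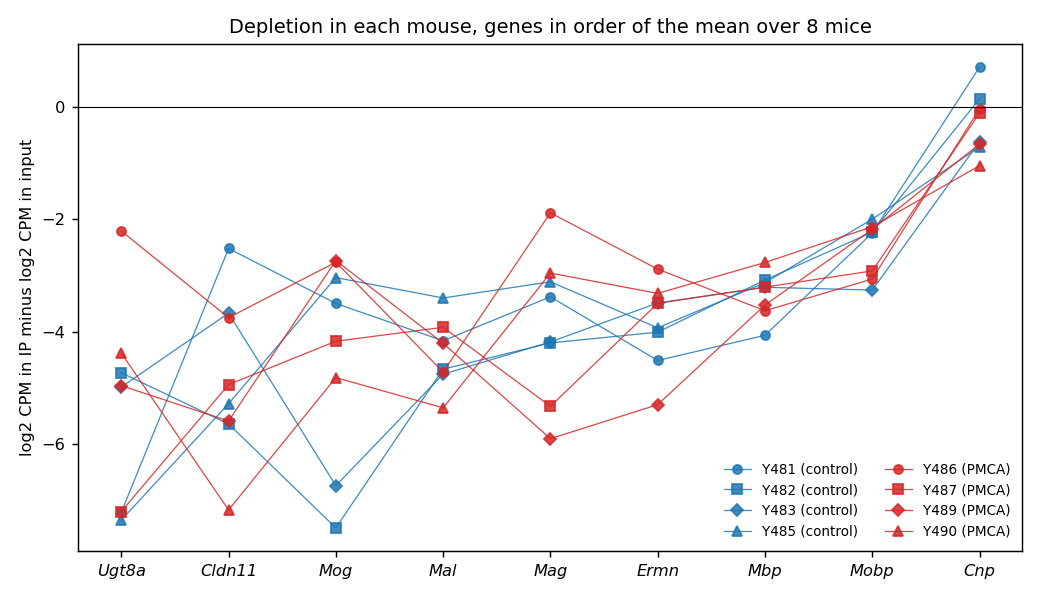
Log2 CPM in IP minus log2 CPM in input for each gene, one line per mouse, control in blue and PMCA in red, with genes ordered by their mean over 8 mice. All 8 lines rise from Mobp to Cnp, while the lines cross among Ugt8a, Cldn11, Mog, Mal, Mag and Ermn.

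Cnp was less depleted than Mobp by 2.21 ± 0.79 and less than Mal by 4.11 ± 0.74 log2 units (SD, n = 8). Mobp was less depleted than Mbp by 0.82 ± 0.60 log2 units in 7 of 8 mice (adjusted p = 0.0352, exact permutation test), with Y483 the exception. It was less depleted than Mal by 1.90 ± 0.69 in 8 of 8 mice (adjusted p = 0.0256, exact permutation test), and it also differed from Cldn11, Mog, Ugt8a and Ermn but not from Mag (adjusted p = 0.0844, exact permutation test). Mbp was less depleted than Mal by 1.07 ± 0.82 in 8 of 8 mice (adjusted p = 0.0256, exact permutation test) and less than Ugt8a by 2.05 ± 1.80 in 7 of 8 (adjusted p = 0.0352, exact permutation test). In the order of means, neighbours from Ugt8a to Mbp did not differ beyond their spread between mice.

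With a prior of 2 reads 13 pairs were called, again including all 8 with Cnp, and 12 of the 13 were among the 16. The 4 lost calls were those of Mobp with Mog (adjusted p = 0.192), Ugt8a (0.0603) and Ermn (0.0993) and that of Mbp with Ugt8a (0.293), by the exact permutation test, and the pair of Mog and Mal was gained (0.0433). The order of the means among the low-read members turned with this prior. Mean depletion of Mal then exceeded that of Ugt8a by 0.36 log2 units (adjusted p = 0.514, exact permutation test). It exceeded that of Cldn11 by 0.47 (adjusted p = 0.281, same test) and that of Mog by 1.04. Mog was on average less depleted than Mbp by 0.21 (adjusted p = 0.729, same test). Of these differences only that of Mog and Mal passed. Leaving out 1 mouse raises the smallest possible p to 0.0156. In that case 0 pairs were called without Y482, Y485, Y487 or Y490, and 12 to 17 pairs without one of the others. No pair of the 16 changed direction when 1 mouse was left out.

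The summed reads of the 9 genes made up 0.3001% ± 0.0277 of control input libraries and 0.0407% ± 0.00517 of control IP libraries. In PMCA mice the shares were 0.323% ± 0.0238 of input and 0.0397% ± 0.00267 of IP (SD, n = 4 each). Within that sum Cnp held 8.42% ± 2.87 of reads in control input and 47.9% ± 7.55 in control IP, and 9.13% ± 2.42 and 44.1% ± 8.54 in PMCA mice. Mbp held 49.0% ± 2.02 in control input and 31.3% ± 8.64 in control IP. These are shares of reads, not corrected for transcript length, and IP and input did not overlap for Cnp in either treatment.

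**Figure D4:**
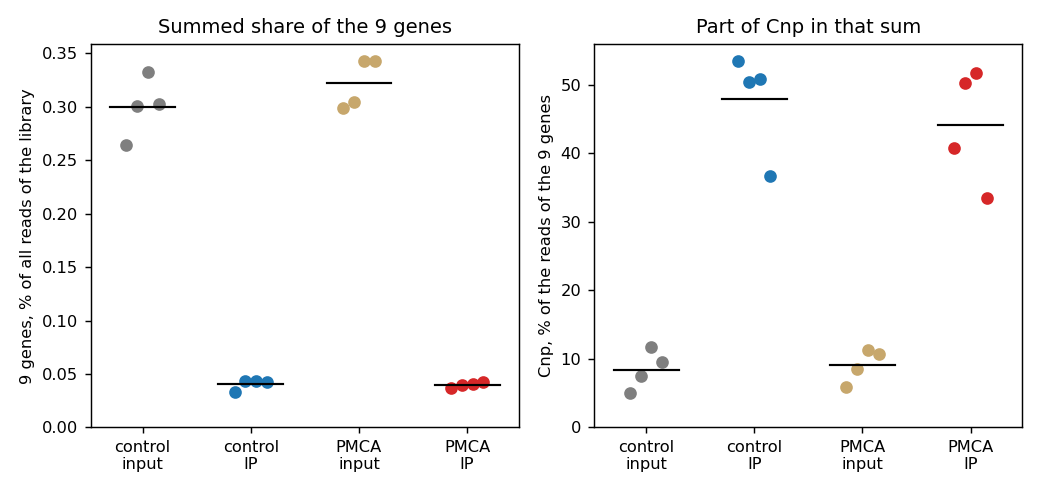
Left, reads of the 9 genes as a percentage of all reads of a library; right, Cnp reads as a percentage of the reads of the 9 genes; a point is 1 mouse and the line is the mean of 4. The summed share is 0.3001% in control input and 0.0407% in control IP, while the part of Cnp is 8.42% and 47.9%.

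The windows of 250 bases before the starts in the RefSeq promoter table are shown for the pair of members that were depleted least, Cnp and Mobp, and for Mal, the member with the smallest adjusted p. Of the 9 members 8 had a start in the RefSeq table (GRCm38.p6), with 10 windows, and Mbp had none. Sequences run 5′ to 3′ on the strand of the gene, and capitals mark matches to the SOX core letters ACAANG on either strand, a motif bound by SOX factors such as the oligodendrocyte regulator Sox10.
Cnp: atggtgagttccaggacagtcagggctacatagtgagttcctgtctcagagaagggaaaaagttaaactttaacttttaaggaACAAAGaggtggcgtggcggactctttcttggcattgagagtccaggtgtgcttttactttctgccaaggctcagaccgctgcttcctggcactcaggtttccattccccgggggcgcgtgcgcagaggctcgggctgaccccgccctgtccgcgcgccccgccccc
Mobp: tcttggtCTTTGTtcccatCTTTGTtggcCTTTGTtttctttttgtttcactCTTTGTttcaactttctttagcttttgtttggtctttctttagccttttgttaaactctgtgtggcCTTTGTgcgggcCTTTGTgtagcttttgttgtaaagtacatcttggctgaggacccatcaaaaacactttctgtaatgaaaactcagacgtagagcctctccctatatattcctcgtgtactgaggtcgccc
Mal: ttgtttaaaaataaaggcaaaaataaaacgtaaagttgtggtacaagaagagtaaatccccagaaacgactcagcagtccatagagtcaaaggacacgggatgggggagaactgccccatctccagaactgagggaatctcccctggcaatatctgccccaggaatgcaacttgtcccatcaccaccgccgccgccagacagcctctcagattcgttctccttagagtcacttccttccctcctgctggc
The windows are chr11:100574689-100574938 on the plus strand for Cnp, chr9:120149492-120149741 on the plus strand for Mobp and chr2:127656696-127656945 on the minus strand for Mal. The start used for Cnp lies downstream of the first base of the gene's span given above, so the end of its window falls inside that span.

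Mobp held 6 matches, Cnp 1 and Mal 0. Matches were found in 7 of the 10 member windows, of which 3 are those of Mag, and in 36.3% of all 32851 windows of this length. The E-box letters CANNTG were found in 4 of 10 member windows (66.2% of all windows), the GC box GGGCGG on either strand in 2 of 10 (32.7%) and the TATA box TATAAA on either strand in 0 of 10 (12.4%). Cnp held 2 GC boxes and Ugt8a 3. The GC content was 57.2% for Cnp, 40.8% for Mobp and 50.0% for Mal, against a median of 52.4%. A match of letters is a description of the window and not a measured site.

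The virus was compared within each fraction. In input, limma on the 8 input libraries tested all 9 members and called 0, against 0.0339% of 5895 genes. At an unadjusted p under 0.05 there were 0 members, against 3.6% of genes. The voom variant of limma also called 0. The differences, PMCA against control, ranged from -0.44 (Mog, 95% interval -1.29 to 0.40) to 0.37 (Ugt8a, -0.18 to 0.92). They were known best for Mbp (0.07, -0.16 to 0.31) and Mal (-0.07, -0.39 to 0.26). No rise or fall of the members was called. Whole tissue would in any case not tell a change in oligodendrocyte number from one in RNA per oligodendrocyte.

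In the precipitate, limma on the 8 IP libraries could test 3 of the 9 members, Mbp, Mobp and Cnp, since the other 6 had too few reads. It called 0 of them, against 0.507% of 7094 genes, and 0 had an unadjusted p under 0.05, against 12.9% of genes. voom also called 0. PMCA against control gave 0.16 for Mbp (95% interval -0.45 to 0.78), 0.16 for Mobp (-0.54 to 0.85) and -0.14 for Cnp (-0.49 to 0.21). Fitted with all 16 libraries, all 9 members were tested and 0 were called. Ugt8a (1.76, SE 0.77, unadjusted p = 0.0312, adjusted p = 0.566 by limma) and Cldn11 (-1.42, SE 0.62, unadjusted p = 0.0305, adjusted p = 0.565 by limma) were the 2 members with an unadjusted p under 0.05 there. They rest on 2 control against 14 PMCA reads and on 15 against 5 reads. Markers of other cell types did differ in IP. Of 5 tested microglial markers 2 were higher in PMCA IP, C1qa (2.95, adjusted p = 0.0295 by limma) and C1qc (3.05, adjusted p = 0.00456 by limma), and C1qb had 2.19 (adjusted p = 0.0799 by limma). The summed level of all 8 microglial markers was 98.3 to 177 CPM in control IP and 190 to 552 CPM in PMCA IP. Foxj1, the 1 tested ependymal marker, was also higher (1.17, adjusted p = 0.0436 by limma). The part of these cells in the members' IP values was not tested.

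The change of depletion with PMCA was tested directly as the difference of the IP to input contrasts. limma called 0 of the 9 members, against 0.0371% of 8091 genes, 0 had an unadjusted p under 0.05, against 5.28% of genes, and voom called 0. The smallest adjusted p was 0.913. The interval for Mbp ran from -0.61 to 0.79 log2 units and that for Cnp from -1.17 to 0.49. For Mog (1.57, -0.71 to 3.86), Ugt8a (1.38, -0.86 to 3.63) and Cldn11 (-1.09, -2.88 to 0.71) the intervals were too wide to exclude a change of several fold.

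Among other genes of the lineage, from lists chosen with earlier results of these data known, depletion was less uniform. Of 37 other mature oligodendrocyte and myelin genes 35 were matched by symbol in the files and 26 were tested, and 16 were lower and 4 higher in control IP, with a median of -1.28. In PMCA mice 16 were lower and 5 higher (median -1.54). Apod, a lipid-binding secreted protein (-4.32), Tmem88b (-3.85), the tubulin Tubb4a (-3.66) and the tetraspanin Tspan2 (-3.48) had the most negative values in control mice. Genes of this list that were higher in IP in both treatments were the tetraspanin Cd9 (2.32 and 2.29), the carbonic anhydrase Car2 (1.40 and 1.01), Plekhb1 (1.32 and 1.44) and the deacetylase Sirt2 (1.23 and 0.97). Pmp22 was higher in PMCA mice (2.89, adjusted p = 0.0118) and had 2.13 in control mice (adjusted p = 0.0529). Car2, Plekhb1 and Sirt2 were named after their values were seen.

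**Figure D5:**
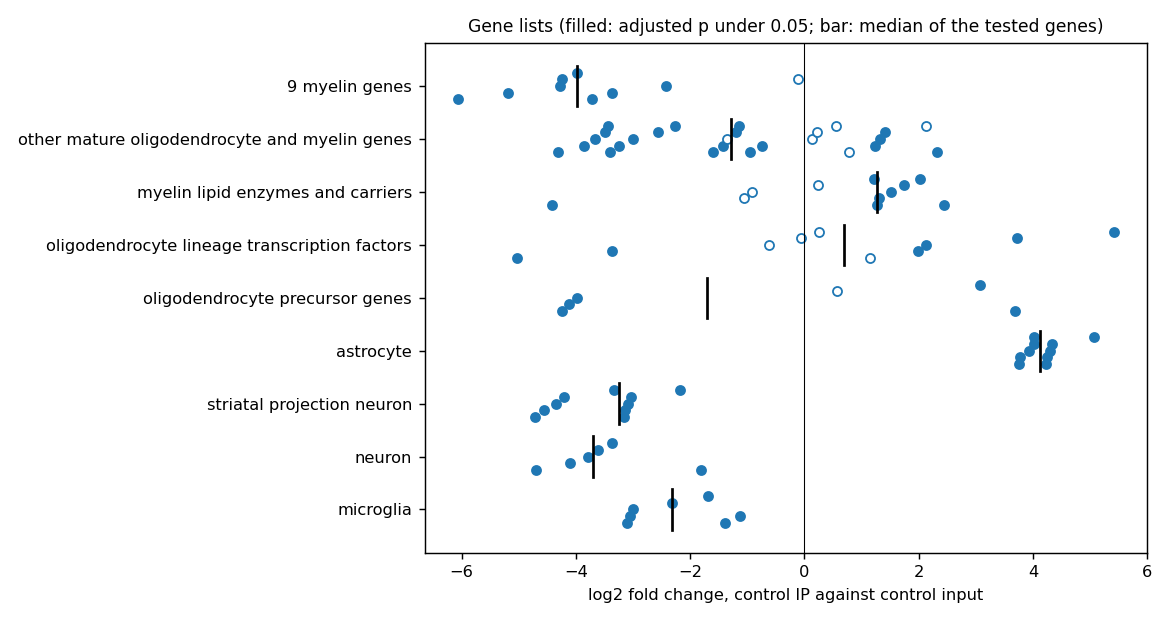
Log2 fold change of control IP against control input for each tested gene of the lists, in rows; filled points have an adjusted p under 0.05 and the bar is the median of the tested genes. The 9 myelin genes have a median of -3.98 with Cnp near 0, the other mature oligodendrocyte and myelin genes spread on both sides of 0 with a median of -1.28, and all 10 astrocyte genes are above 0.

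Of the enzymes and carriers of myelin lipids 11 of 14 were tested, and 1 was lower and 7 higher in control IP (median 1.28). The exception was Fa2h, which hydroxylates fatty acids of myelin galactolipids, with 43 input and 2 IP reads in control mice (adjusted p = 1.06e-04), as Ugt8a had 111 and 2. The sphingosine phosphate lyase Sgpl1 (2.44) and the sulfatide-degrading arylsulfatase Arsa (2.02) were the highest, and Cers2, a ceramide synthase, had 0.24 (adjusted p = 0.611). In PMCA mice 2 were lower, Fa2h and the fatty acid elongase Elovl7 (-2.71), and 7 higher. The list goes by function and not by cell type. Which cells gave the IP reads of its higher genes was not tested.

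Of 15 lineage transcription factors 10 were tested. Sox10 (49 input and 2 IP reads) and Myrf, a factor that switches on myelin genes (-3.36), were lower in control IP, 4 were higher and 4 did not pass. Olig1 (-0.62, adjusted p = 0.154) and Olig2 (-0.06, adjusted p = 0.934) did not pass in control mice, and Olig2 was lower in PMCA mice (-1.58, adjusted p = 0.0187). The highest were Id2 (3.72), a repressor, and Hes5, a Notch target with 0 reads in control input and 53 in control IP. In PMCA mice Hes5 had 21 input and 63 IP reads and did not pass (1.80, adjusted p = 0.139 by limma). Of 11 precursor genes 6 were tested. Gpr17 (-4.25), Pdgfra (-4.13) and Lhfpl3 (-3.99) were lower in control IP, while the proteoglycan Ncan (3.07) and the phosphatase Ptprz1 (3.68) were higher. The 10 astrocyte markers ran from 3.76 to 5.07 in control mice. Which cells gave the IP reads of the lineage genes that were higher in IP was not tested. The 6 neuronal markers had a median of -3.70 and the 7 tested microglial markers one of -2.32 in control mice, where all of them fell. In PMCA mice 4 of the 7 microglial markers fell and C1qa, C1qb and C1qc did not pass (median -1.22). Other cell types had few tested markers. In control IP the endothelial marker Flt1 (-2.94) and the mural marker Vtn (-4.36) were lower, Slco1c1 (3.05) and Pdgfrb (3.12) were higher, and the ependymal marker Foxj1 did not pass (adjusted p = 0.128 by limma). In PMCA mice Foxj1 was higher in IP than in input (3.52, adjusted p = 0.00117 by limma).

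Across the 16 libraries, genes outside the members whose log2 CPM closely followed the mean of the standardised members included Ndrg4 (Pearson r = 0.993), Adcy5 (0.989), Pde1b (0.988), Lrrc10b (0.987) and Arpp21 (0.987), out of 8080 genes. All of these were lower in control IP, between -2.38 (Lrrc10b) and -3.51 (Pde1b), and the correlation spans both fractions. Neuronal and projection neuron markers also fell there, with medians of -3.70 and -3.25. A high r over both fractions therefore does not mark a shared cell type, and the cells that express these genes were not tested. Over the 8 input libraries alone the closest included Cldn25 (0.957), Gnb2l1 (0.956), Tmem183a (0.954), Rap1gap (0.943) and Trim23 (0.940), of 5885 genes. They were picked as the highest of 5885 correlations over 8 libraries, and such values were not tested against chance. Within input, Pearson r between members was positive in some pairs and negative in others. Over the 36 pairs, across 8 input libraries in which all members share the library's depth, Pearson r had a median of 0.01. The r values that follow are the largest in size of the 36 and were not tested against chance. Cnp had an r of 0.84 with Mag, 0.66 with Mbp, 0.65 with Cldn11 and 0.53 with Ugt8a. Mag had an r of 0.62 with Mog and 0.61 with Cldn11, and Mobp had -0.66 with Cldn11 and -0.53 with Mog. Y483 had the highest input level for 3 members and Y486 the lowest for 3, and no mouse was highest or lowest for more.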

How the data were processed

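The deposited files give log2 CPM, where CPM are reads scaled to an effective library size, per gene and library, and the authors did not pool replicates in them. The submitters' processing notes name STAR, HTSeq, edgeR, limma and the mm10 build, without versions or settings, and the deposited values carry a mean prior count of 0.25 reads. Here, whole reads were recovered from the deposited values: 100% lay within 0.01 reads of a whole number. No count model was used as the main test, since the deposited unit is log2. limma 3.58.1 in R 4.3.3 (trend, robust moderation with statmod 1.5.0) was fitted to the deposited values, with Benjamini-Hochberg adjustment over all genes tested. Low genes were left out: a tested gene needed, in 4 or more fitted libraries, a CPM worth 10 reads in a library of median size, and a total of 15 reads over the fit. The fit of 16 libraries had no block. The labels put the input and IP library on the same mouse, so a fit with the mouse as replicate block was run beside it. Deviations of paired libraries from their group means correlated with r from -0.04 to 0.15 over 4288 genes. For Y490 IP, r was -0.04 with its own input and 0.10 with the closest other input of its treatment. Every other mouse had the higher r with its own input, though barely so in Y482 (0.0292 against 0.0290). Named genes were the 9 members, up to 4 tested genes per list with the most negative and up to 2 with the least negative control fold change, and the 6 genes most like the members over all and over input libraries. Some genes that the rule names are not reported here. The lists held other oligodendrocyte and myelin genes, lipid enzymes, lineage factors, precursors, astrocytes, projection neurons, neurons, microglia, endothelial, mural and ependymal cells. Members and lists were chosen with earlier results of these data known. Treatment contrasts used the 8 libraries of a fraction. Alternatives were other priors, scalings, filters, limma settings (voom among them), libraries in the fit and each mouse left out. The libraries held 198462 to 686343 reads, and counting intervals of pooled reads are exact (Clopper-Pearson, 95%). The limma test of depletion in control mice was checked on simulated data. The sign-flip test was checked only for its smallest p, and the other contrasts and fits were not simulated.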

Additional observations from a re-analysis of the deposited data

Results flagged for a closer look

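In 3 of the 36 combinations of member and group, 1 of 4 libraries lay far from the others by Dixon's criterion of gap over range, and chance gives about 1 in 20. Mbp in control IP was 6.05 log2 CPM in Y481, against 7.35 to 7.43 in the other 3 mice. Mag in PMCA input was 6.18 log2 CPM in Y486, against 7.49 to 7.61 in the others. Mal in control input was 8.26 log2 CPM in Y485, against 8.86 to 8.92 in the others.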

How the results depend on the processing

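The counts of 8 of 9 members lower in IP held in control mice under every alternative. With the mouse as replicate block 8 members were lower in each treatment, 0 differed between treatments, and no call changed (Cnp adjusted p = 0.692 and 0.0896, limma). In PMCA mice the total of listed reads as library size added Cnp (-0.72), and over all genes turned 2004 lower and 2015 higher calls into 2590 and 1566. In the fit of the 8 PMCA libraries Mog was not tested. The number of pairs called ranged from 0 to 17 when 1 mouse was left out, where the adjustment can call many pairs or none. Signs of some uncalled values also turned when 1 mouse was left out, with the ranges that follow. Cnp depletion in control mice ranged from -0.39 to 0.083, and was 0.05 without Y483. The difference of depletion ranged from -0.14 to 0.20 for Mbp (-0.08 without Y490), -0.42 to 0.022 for Mobp (0.0038 without Y485), -0.052 to 0.75 for Ermn and -1.01 to 0.33 for Mag (0.14 without Y487). PMCA against control in IP ranged from -0.17 to 0.29 for Mbp (-0.012 without Y490) and -0.0060 to 0.34 for Mobp. In input it ranged from -0.027 to 0.12 for Mbp, -0.11 to 0.45 for Cnp, -0.28 to 0.30 for Mag (0.10 without Y483 or Y485) and -0.0041 to 0.23 for Ermn. The cause was not tested. Fewer than 5 reads in most IP libraries limit Mog, Ugt8a, Cldn11 and Ermn.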
